A study of Danio rerio with 4 samples.

Results

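The 10 genes described here encode enzymes that carry glucose to lactate: hk1, gpia, gpib, pfkpa, aldoca, tpi1b, gapdhs, pgk1, pkma and ldha. They were chosen by gene name from the 26812 genes of the expression table, and each name matched 1 gene. Expression was measured by RNA sequencing of whole zebrafish embryos. There were 4 libraries, from embryos labelled KDM5A-KO and from WT embryos, with 1 library per genotype at 24 and 48 h post-fertilization (hpf). KDM5A-KO is used below as the label gives it, while the titles of these samples carry the letters mo, unexplained. KDM5A is a demethylase of histone H3. The study compared these embryos to find out how gene expression differs without it. The KDM5A-KO embryos came from crosses of KO fish according to the sample labels, whereas the paper's methods describe embryos injected with an sgRNA and a plasmid for Cas9, and injected embryos are commonly mosaic. Each library was made from pooled whole embryos in the 24 hpf experiment of the paper, and no source used here gives the pool of the 48 hpf libraries. With 1 library a group, no difference below could be checked against replicates, and all intervals cover only the error of counting reads.

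Glycolysis splits glucose into pyruvate in the cytoplasm. Hexokinase traps glucose as glucose 6-phosphate, phosphofructokinase takes the first committed step, and pyruvate kinase closes the pathway. Lactate dehydrogenase turns pyruvate into lactate and so restores the cofactor that glyceraldehyde-3-phosphate dehydrogenase uses. Zebrafish keep several copies of most of these enzymes, and the copies differ in the tissues that use them, with muscle, brain and retina as heavy users of the pathway. Many of these genes are also targets of the hypoxia-inducible factor in vertebrates.

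The letters that head the columns were read as KDM5A-KO (K) and WT (C), and the numbers as 24 hpf (1) and 48 hpf (2). This reading is an inference, and exchanged letters would turn the sign of every difference between the genotypes. KDM5A itself had 20.3 and 16.3 FPKM in the KDM5A-KO libraries at 24 and 48 hpf, against 13.8 and 18.1 FPKM in the WT libraries. Its annotated model (ENSDARG00000104567) lies on a scaffold outside the numbered chromosomes and spans 8151 bases. The length found for it was 3540 bases, and whether the model holds the full gene was not tested. FPKM count fragments relative to gene length and library depth, and so give a level per length. As measured on this KDM5A model, the transcript of the targeted gene was therefore not lower at 24 hpf in the library labelled KDM5A-KO. The ratio was 1.47 (95% counting interval 1.3 to 1.66) at 24 hpf and 0.902 (0.823 to 0.987) at 48 hpf. The libraries held between 7441797 and 15922314 reads as recovered from the FPKM steps. The WT library at 24 hpf stood apart with the fewest reads and 12.5% of them on the genes of the rRNA loci, against 0.341% to 0.555% in the other 3 libraries. Because of this, the values at 24 hpf were also rescaled by the median of ratios over genes, which lowered the log2 ratios of KDM5A-KO to WT by 0.27 at 24 hpf and by 0.01 at 48 hpf. For KDM5A itself the log2 ratio at 24 hpf was 0.52 as deposited and 0.27 after rescaling.

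At 24 hpf the glycolysis genes were divided between the genotypes. In KDM5A-KO, hk1, gpia, gapdhs and pkma were higher beyond counting error, which means that the 95% interval of the ratio excluded 1, and gpib, ldha and tpi1b were lower beyond it. Among the 17290 genes with at least 1 FPKM in either library, 42.1% were higher and 10.1% lower beyond counting error, so 4 of 10 higher members was a share near that of all genes. After rescaling, 3 members remained higher (hk1, gapdhs and pkma) and 4 were lower (gpib, pfkpa, ldha and tpi1b), where 19.9% of all genes were higher and 23.6% lower. No member was changed at least 2-fold on the log2(FPKM + 1) scale, where 4.22% of all genes passed 2-fold upward and 2.04% downward. The median log2 ratio of the members was 0.15, beside 0.22 for all genes, and -0.005 beside -0.01 after rescaling. The medians of all genes leave out those below 1 FPKM in both libraries, as aldoca was. Over the other 9 members the median was 0.14, and -0.13 after rescaling.

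At 48 hpf the genes leaned one way. Of the 10 members, 7 were higher in KDM5A-KO beyond counting error (hk1, gpia, gpib, gapdhs, pgk1, pkma and ldha) and 0 were lower. Of the 18262 genes tested, 28.0% were higher and 34.4% lower beyond counting error. The differences were modest: no member reached 2-fold, where 3.76% of all genes passed it upward and 5.12% downward. The median log2 ratio of the members was 0.28, or 0.32 without aldoca, and that of all genes was -0.05. Rescaling left the median of the members at 0.27. Since highly expressed genes have narrow counting intervals and most members are highly expressed at this age, the share beyond counting error is not set by the size of the differences alone.

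**Figure D1:**
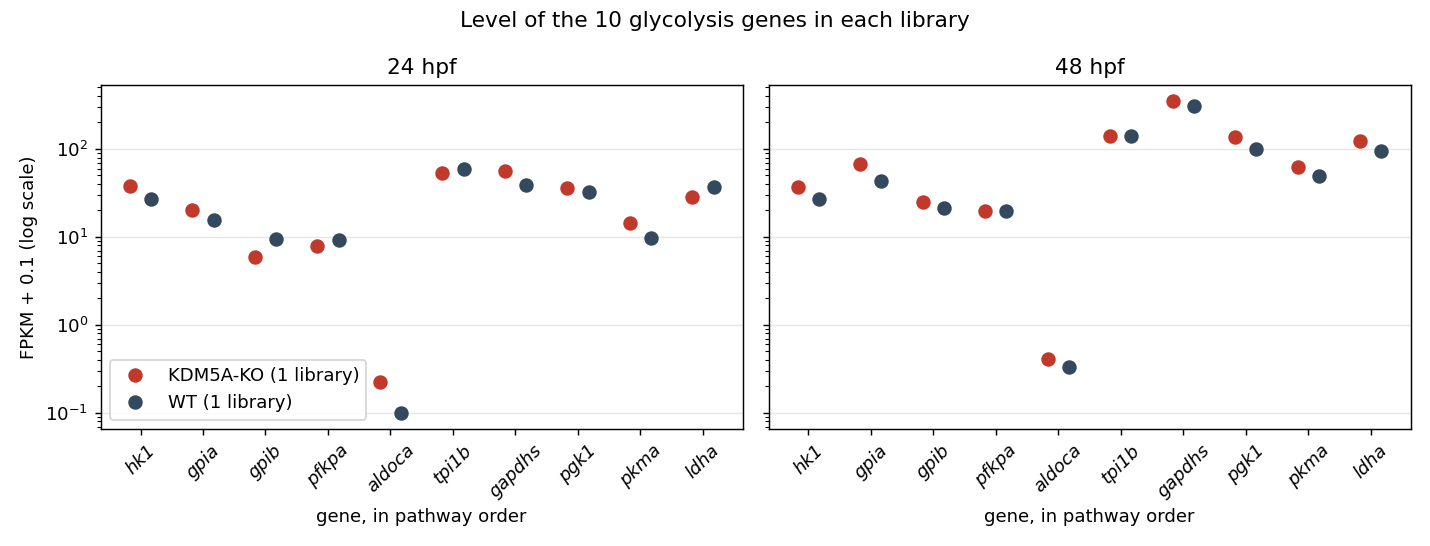
Level of the 10 genes in each of the 4 libraries, as FPKM + 0.1 on a log axis, in pathway order, with the KDM5A-KO library left of the WT library at each age and 1 point per library. At 48 hpf, 9 of the 10 KDM5A-KO points lie above the WT point and tpi1b is level at 142 FPKM, while aldoca lies below 1 FPKM throughout.

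At the hexokinase step, the main gene was higher in KDM5A-KO at both ages. The gene hk1, the widely expressed hexokinase (ENSDARG00000039452, chromosome 13), had 38.0 FPKM at 24 hpf and 36.4 FPKM at 48 hpf in the KDM5A-KO libraries, against 26.8 and 26.8 FPKM in the WT libraries. Both KDM5A-KO values thus lay above both WT values, but the share of all genes with such an order was not computed. The libraries of a genotype differ in age and are not replicates. The ratio of KDM5A-KO to WT was 1.42 (1.31 to 1.54) at 24 hpf and 1.36 (1.28 to 1.45) at 48 hpf. The log2 ratio at 24 hpf was 0.49, and 0.23 after rescaling. It was the one member among the 9 well-detected genes whose level barely moved with age in either genotype.

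The other hexokinase with a marked level, hk2, the insulin-responsive and hypoxia-responsive form of muscle in mammals, had 12.6 and 9.03 FPKM in KDM5A-KO at 24 and 48 hpf, against 4.92 and 3.52 FPKM in WT. Its ratio was 2.56 (2.1 to 3.15) at 24 hpf and 2.57 (2.15 to 3.07) at 48 hpf. At 24 hpf its log2 ratio was 1.2 as deposited and 0.96 after rescaling. Since hk2 differed more than hk1, hk1 held a smaller share of the summed FPKM of the 4 hexokinase genes in KDM5A-KO, 69.7% and 77.0% at 24 and 48 hpf, against 80.0% and 83.8% in WT.

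Glucose-6-phosphate isomerase interconverts glucose 6-phosphate and fructose 6-phosphate, and its 2 genes parted at 24 hpf. The level of gpia (ENSDARG00000012987, chromosome 25) was 20.2 and 67.9 FPKM in KDM5A-KO at 24 and 48 hpf, against 15.3 and 43.5 FPKM in WT. Its ratio was 1.32 (1.14 to 1.52) at 24 hpf and 1.56 (1.47 to 1.66) at 48 hpf, the highest of the members at 48 hpf. On the rescaled values its log2 ratio at 24 hpf was 0.12, within counting error.

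Its copy gpib (ENSDARG00000103826, chromosome 18) had 5.81 and 25.1 FPKM in KDM5A-KO at 24 and 48 hpf, against 9.27 and 21.1 FPKM in WT. It was lower in KDM5A-KO at 24 hpf, with a ratio of 0.626 (0.499 to 0.787), the lowest of the members, and higher at 48 hpf, with a ratio of 1.19 (1.08 to 1.32). At 24 hpf this rests on 176 reads in KDM5A-KO and 142 reads in WT. The annotated gpib model spans 498303 bases and overlaps 9 other genes, 2 of them on the same strand. It lies 3757 bases from pkma, which is on that strand too. How reads were divided between these genes was not tested. The share of gpia in the isomerase FPKM was 77.6% and 73.0% in KDM5A-KO at 24 and 48 hpf, against 62.3% and 67.4% in WT.

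Phosphofructokinase adds the next phosphate and is the main point of control. For pfkpa, the platelet-type gene (ENSDARG00000028000, chromosome 24), the level was 7.89 and 19.8 FPKM in KDM5A-KO at 24 and 48 hpf, against 9.16 and 19.4 FPKM in WT. Neither difference passed counting error as deposited, with ratios of 0.862 (0.737 to 1.01) and 1.02 (0.939 to 1.11). The muscle-type copy pfkmb had 6.02 and 41.5 FPKM in KDM5A-KO, against 6.76 and 22.8 FPKM in WT, a ratio of 1.82 (1.68 to 1.97) at 48 hpf. As a result pfkpa held 21.1% of the phosphofructokinase FPKM in KDM5A-KO at 48 hpf, against 27.8% in WT, and the summed level of the 6 genes of the step had a log2 ratio of 0.42 although pfkpa did not differ beyond counting error.

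Aldolase cleaves the resulting sugar bisphosphate. The gene aldoca, a copy of the brain-type aldolase C (ENSDARG00000057661, chromosome 15), was close to absent, with 0.124 and 0.315 FPKM in KDM5A-KO at 24 and 48 hpf, against 0 and 0.235 FPKM in WT. These levels correspond to 4 and 11 reads in KDM5A-KO, against 0 and 8 reads in WT. A count of 0 in the WT library at 24 hpf allows up to 3 reads, or 0.184 FPKM, and no difference was detectable at this depth.

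The brain-type step was carried by aldocb, with 57.7 and 104 FPKM in KDM5A-KO at 24 and 48 hpf, against 23.7 and 71.3 FPKM in WT. Its ratio was 2.43 (2.18 to 2.72) at 24 hpf and 1.46 (1.39 to 1.54) at 48 hpf. At 24 hpf its log2 ratio was 1.25 as deposited and 0.99 after rescaling. The most abundant aldolases were aldoab, with 396 and 434 FPKM in KDM5A-KO against 422 and 356 FPKM in WT, and aldoaa, with 288 and 307 FPKM in KDM5A-KO against 236 and 205 FPKM in WT. At 48 hpf both were higher in KDM5A-KO beyond counting error.

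Triosephosphate isomerase makes both products of that cleavage usable. For tpi1b (ENSDARG00000040988, chromosome 16) the level was 53.6 and 142 FPKM in KDM5A-KO at 24 and 48 hpf, against 58.4 and 142 FPKM in WT. The ratio was 0.917 (0.845 to 0.995) at 24 hpf, just past counting error, and 0.999 (0.959 to 1.04) at 48 hpf. The upper bound of 1.04 at 48 hpf lies below the ratios of hk1, gpia, pgk1 and ldha at that age. In all 4 libraries tpi1b held between 94.6% and 96.8% of the FPKM of its step.

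Glyceraldehyde-3-phosphate dehydrogenase is the step that yields the reduced cofactor. The copy gapdhs (ENSDARG00000039914, chromosome 16) had 55.8 and 355 FPKM in KDM5A-KO at 24 and 48 hpf, against 38.9 and 311 FPKM in WT. Its ratio was 1.43 (1.22 to 1.69) at 24 hpf and 1.14 (1.09 to 1.2) at 48 hpf, where it was the most abundant of the 10 genes. The copy gapdh, often taken as a constant reference, had 210 and 693 FPKM in KDM5A-KO against 205 and 459 FPKM in WT. At 48 hpf its ratio was 1.51 (1.48 to 1.54), so gapdhs held 33.9% of the step in KDM5A-KO, against 40.4% in WT. At 24 hpf the share of gapdhs was instead higher, with 20.9% in KDM5A-KO against 16.0% in WT.

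Phosphoglycerate kinase makes the first ATP of the pathway, and pgk1 (ENSDARG00000054191, chromosome 21) was the 1 gene listed for this step. It had 35.9 and 137 FPKM in KDM5A-KO at 24 and 48 hpf, against 32.6 and 100 FPKM in WT. The ratio of 1.1 (0.996 to 1.22) at 24 hpf lay within counting error, and its direction turned with rescaling, where the log2 ratio was -0.13 instead of 0.14. At 48 hpf the ratio was 1.37 (1.31 to 1.43).

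Pyruvate kinase makes pyruvate, and at 48 hpf its 2 genes differed in opposite directions. For pkma (ENSDARG00000099730, chromosome 18) the level was 14.4 and 62.3 FPKM in KDM5A-KO at 24 and 48 hpf, against 9.69 and 49.6 FPKM in WT. Its ratio was 1.49 (1.26 to 1.76) at 24 hpf, the highest of the members at that age, and 1.26 (1.19 to 1.33) at 48 hpf. The copy pkmb had 9.16 and 78.8 FPKM in KDM5A-KO against 10.5 and 97.5 FPKM in WT, with a ratio of 0.808 (0.768 to 0.850) at 48 hpf. At 24 hpf the pkmb ratio of 0.87 (0.718 to 1.06) lay within counting error as deposited. The share of pkma in the step was accordingly 61.1% and 44.2% in KDM5A-KO at 24 and 48 hpf, against 47.9% and 33.7% in WT, while the summed level of both genes had a log2 ratio of -0.06 at 48 hpf.

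Lactate dehydrogenase ends the anaerobic branch. The gene ldha, the muscle-type subunit and a classical hypoxia target in mammals (ENSDARG00000101251, chromosome 25), had 28.2 and 124 FPKM in KDM5A-KO at 24 and 48 hpf, against 37.0 and 94.7 FPKM in WT. It was lower in KDM5A-KO at 24 hpf, with a ratio of 0.763 (0.688 to 0.847), and higher at 48 hpf, with a ratio of 1.31 (1.26 to 1.38). Its annotated model overlaps 2 other genes, 1 of them on the same strand. The heart-type copy ldhba held most of the step, with 224 and 299 FPKM in KDM5A-KO against 187 and 289 FPKM in WT. The share of ldha was 11.1% and 29.1% in KDM5A-KO at 24 and 48 hpf, against 16.5% and 24.3% in WT.

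**Figure D2:**
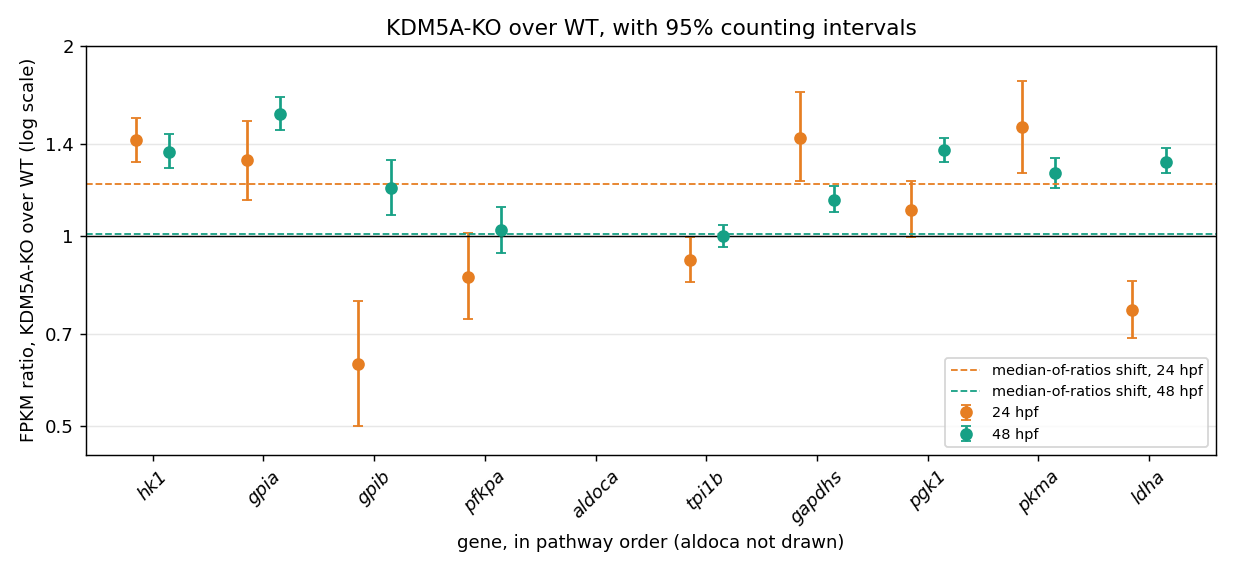
Ratio of KDM5A-KO to WT FPKM for each gene at 24 hpf (orange) and 48 hpf (green) on a log axis, with 95% counting intervals of 1 library against 1, and dashed lines at the shift that median-of-ratios rescaling removes at each age. The points at 48 hpf lie between 0.999 for tpi1b and 1.56 for gpia, whereas those at 24 hpf run from 0.626 for gpib to 1.49 for pkma.

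The difference between the genotypes was not the same at both ages for every gene. The log2 ratio of KDM5A-KO to WT was greater at 48 hpf than at 24 hpf by 0.93 for gpib (counting interval 0.58 to 1.28), by 0.78 for ldha (0.62 to 0.94), by 0.31 for pgk1 (0.15 to 0.47) and by 0.25 for gpia (0.03 to 0.47). For gapdhs the difference was -0.33 (-0.56 to -0.09), and after rescaling it lay within counting error at -0.07 (-0.30 to 0.17). For hk1, pfkpa, pkma and tpi1b the interval included 0 as deposited. After rescaling it included 0 for pkma, but not for hk1 at 0.20 (0.05 to 0.34), pfkpa at 0.50 (0.25 to 0.75) or tpi1b at 0.38 (0.25 to 0.52). These are differences on the log2 scale of plain FPKM, and they compare 4 libraries rather than replicated groups.

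The largest differences in level were between ages. In KDM5A-KO, 8 of 10 members were at least 2-fold higher at 48 than at 24 hpf, a change shown upward by 9.33% of all genes and downward by 5.20%. In WT the same count was 8 of 10, beside 18.0% of all genes upward and 6.44% downward, and it was 7 after rescaling and 6 with totals without rRNA genes. The exceptions were hk1 and aldoca in both genotypes. The median log2 ratio of 48 to 24 hpf was 1.80 in KDM5A-KO and 1.3 in WT, whereas the medians of all genes were -0.11 and 0.16. Without aldoca the medians of the members were 1.90 in KDM5A-KO and 1.33 in WT. These comparisons share their libraries with those between the genotypes.

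The steepest of these increases was that of gapdhs, with a ratio of 48 to 24 hpf of 6.37 (5.85 to 6.96) in KDM5A-KO and 7.99 (6.95 to 9.23) in WT. For pkma it was 4.33 (3.96 to 4.75) in KDM5A-KO and 5.12 (4.42 to 5.96) in WT. The genotypes parted most for ldha, with 4.41 (4.10 to 4.74) in KDM5A-KO and 2.56 (2.35 to 2.80) in WT, and for gpib, with 4.32 (3.67 to 5.12) in KDM5A-KO and 2.27 (1.89 to 2.74) in WT. For hk1 the ratio was 0.959 (0.905 to 1.02) in KDM5A-KO and 1.00 (0.921 to 1.09) in WT, neither beyond counting error. Between these extremes, gpia, pfkpa, tpi1b and pgk1 were 2.51 to 3.81 times higher at 48 hpf in KDM5A-KO and 2.12 to 3.07 times higher in WT.

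**Figure D3:**
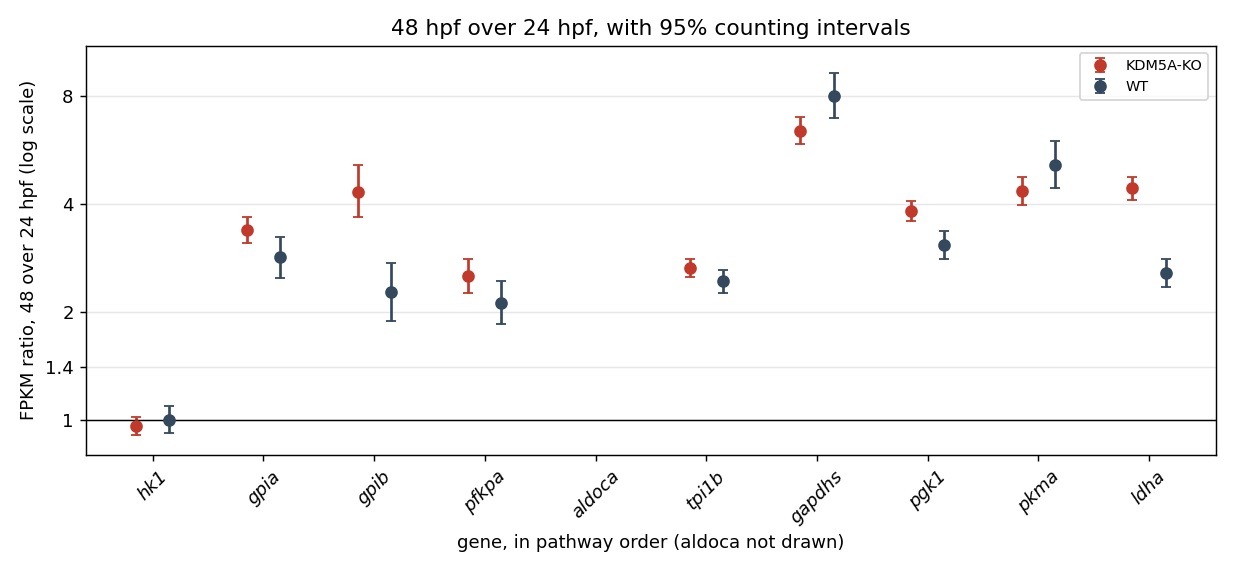
Ratio of 48 to 24 hpf FPKM for each gene in KDM5A-KO (red, left) and WT (dark, right) on a log axis, with 95% counting intervals. All genes drawn except hk1 lie above 2, gapdhs is highest in both genotypes, and the intervals of gpib, pgk1 and ldha do not overlap between the genotypes. The share of all genes whose intervals part in this way was not computed.

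**Figure D4:**
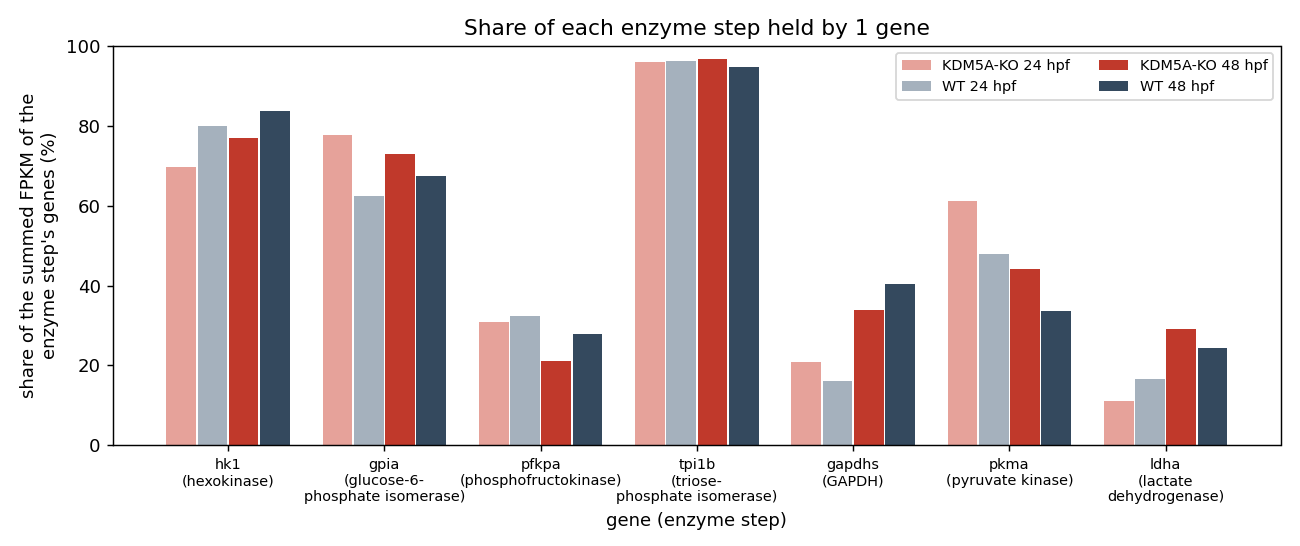
Share of the summed FPKM of each enzyme step's genes that is held by 1 member, in percent, for KDM5A-KO and WT at 24 hpf (light) and 48 hpf (dark), 1 library per bar. The share of hk1 is lower and that of gpia and pkma higher in KDM5A-KO than in WT at both ages, and tpi1b holds at least 94.6% in every library.

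In the order of their levels at 48 hpf in KDM5A-KO, the genes ran gapdhs, tpi1b, pgk1, ldha, gpia, pkma, hk1, gpib, pfkpa and aldoca. In WT the order was the same except that pkma, at 49.6 FPKM, stood above gpia, at 43.5 FPKM. Their summed level was 259.8 and 970.4 FPKM in KDM5A-KO at 24 and 48 hpf, against 237.1 and 808.1 FPKM in WT. Except for aldoca, every member exceeded at least 87.5% of all genes in both libraries of 48 hpf, and gapdhs exceeded 99.3% in KDM5A-KO and 99.2% in WT.

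The remaining enzymes of the pathway were taken from a list, and 24 of the 25 found in the table had at least 1 FPKM in either library of each comparison. At 48 hpf, 13 of the 24 were higher in KDM5A-KO beyond counting error and 6 lower, and hk2 was the 1 gene past 2-fold. The median log2 ratio of the 24 was 0.19. Over all genes at that age, 28.0% were higher and 34.4% lower beyond counting error, and 3.76% and 5.12% passed 2-fold upward and downward. By step, the summed FPKM at 48 hpf had its largest log2 ratios at enolase (0.72) and hexokinase (0.55), and its lowest at triosephosphate isomerase (-0.03) and pyruvate kinase (-0.06). Enolase removes water to make phosphoenolpyruvate. Of its genes, eno1a had 54.6 and 171 FPKM in KDM5A-KO at 24 and 48 hpf against 40.2 and 98.8 FPKM in WT, and the muscle form eno3 had 138 and 329 FPKM in KDM5A-KO against 101 and 197 FPKM in WT. At 24 hpf 10 of these 24 genes were higher and 2 lower beyond counting error, against 6 higher and 8 lower after rescaling, and the median of 0.26 became 0.003. The shares of all genes at 24 hpf were 42.1% higher and 10.1% lower, and 19.9% and 23.6% after rescaling.

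Genes that regulate the rate of glycolysis were mostly higher in KDM5A-KO. The transcript of pfkfb3, the kinase that makes the strongest activator of phosphofructokinase, had 3.99 and 12.9 FPKM in KDM5A-KO at 24 and 48 hpf, against 2.47 and 3.56 FPKM in WT. Its ratio was 1.61 (1.21 to 2.18) at 24 hpf and 3.64 (3.09 to 4.29) at 48 hpf. Its liver and muscle relative pfkfb1 had 5.42 and 4.13 FPKM in KDM5A-KO against 3.43 and 1.47 FPKM in WT. Of the 12 regulator genes detected at 48 hpf, 7 were higher and 1 lower beyond counting error, with 2 past 2-fold upward, and the median log2 ratio was 0.38. The shares of all genes at 48 hpf were 28.0% higher and 34.4% lower beyond counting error, and 3.76% past 2-fold upward. At 24 hpf, 8 of 10 were higher beyond counting error, where 42.1% of all genes were, and the median was 0.53. After rescaling, 6 of 10 were higher, where 19.9% of all genes were, and the median was 0.32.

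Transport of glucose and lactate was mixed. The lactate exporter slc16a3 had 1.85 and 9.08 FPKM in KDM5A-KO at 24 and 48 hpf, against 2.71 and 4.74 FPKM in WT, a ratio of 0.682 (0.486 to 0.960) at 24 hpf and 1.92 (1.63 to 2.26) at 48 hpf. The glucose transporter slc2a1a had 21.0 and 1.37 FPKM in KDM5A-KO against 11.1 and 2.23 FPKM in WT, and so was higher at 24 hpf and lower at 48 hpf. Its copy slc2a1b had 5.36 and 22.4 FPKM in KDM5A-KO against 5.90 and 15.5 FPKM in WT. Of the 7 transporter genes detected at 48 hpf, 5 were higher and 1 lower beyond counting error, beside 28.0% and 34.4% of all genes.

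Routes that branch from glycolysis showed differences of their own. In the pentose phosphate pathway, the transketolase tktb had 99.9 and 80.3 FPKM in KDM5A-KO at 24 and 48 hpf, against 67.1 and 46.4 FPKM in WT, whereas its copy tkta had 0.356 and 3.0 FPKM in KDM5A-KO against 0.387 and 11.1 FPKM in WT. All 7 genes of that pathway detected at 24 hpf were higher in KDM5A-KO beyond counting error, as were 42.1% of all genes. The median log2 ratio of the 7 was 0.50. After rescaling 4 of the 7 were higher beyond counting error, as were 19.9% of all genes, and the median was 0.25. At 48 hpf, 5 of 8 were higher and 1 lower, beside 28.0% and 34.4% of all genes. For gluconeogenesis, which runs the pathway backwards, 5 genes were higher and 3 lower beyond counting error of 10 at 48 hpf. The glucose-6-phosphatase gene g6pca.2 had 10.1 and 5.76 FPKM in KDM5A-KO at 24 and 48 hpf, against 3.15 and 3.56 FPKM in WT. The rate-limiting carboxykinase pck1 had 3.80 and 11.1 FPKM in KDM5A-KO against 1.11 and 5.32 FPKM in WT, and the phosphatase fbp2 had 0.680 and 5.76 FPKM in KDM5A-KO against 0.621 and 10.1 FPKM in WT.

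Glycogen stores feed the pathway below hexokinase. The muscle glycogen phosphorylase pygma had 40.2 and 67.2 FPKM in KDM5A-KO at 24 and 48 hpf, against 49.3 and 36.5 FPKM in WT, and the glycogenin gyg1b, a primer of glycogen synthesis, had 1.1 and 2.11 FPKM in KDM5A-KO against 0.622 and 6.34 FPKM in WT. Of 12 glycogen genes detected at 48 hpf, 7 were higher and 2 lower beyond counting error. For the entry of pyruvate into mitochondria the count was 7 higher and 3 lower of 14, with a median log2 ratio of 0.14. Of all genes, 28.0% were higher and 34.4% lower beyond counting error at 48 hpf. The pyruvate carrier subunit mpc1 had 56.1 and 51.6 FPKM in KDM5A-KO at 24 and 48 hpf, against 32.9 and 48.2 FPKM in WT.

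Genes that respond to low oxygen held the largest differences among the lists of the pathway. The gene egln3, a prolyl hydroxylase that marks the hypoxia-inducible factor for degradation and is itself induced by it in mammals, had 0.821 and 11.6 FPKM in KDM5A-KO at 24 and 48 hpf, against 0.464 and 0.584 FPKM in WT. At 48 hpf this rests on 429 reads in KDM5A-KO and 21 reads in WT, a ratio of 19.9 (12.9 to 32.5). The gene cited2, which limits the hypoxia-inducible factor in mammals, had 28.9 and 31.4 FPKM in KDM5A-KO against 8.31 and 9.34 FPKM in WT. The gene ndrg1b went far the other way: it had 0.0764 and 2.72 FPKM in KDM5A-KO against 0.302 and 21.6 FPKM in WT, a ratio of 0.126 (0.098 to 0.160) at 48 hpf. Also lower at 48 hpf was bnip3, with 2.70 FPKM in KDM5A-KO against 6.04 FPKM in WT, a ratio of 0.447 (0.368 to 0.541). For bnip3la the ratio was 0.763 (0.657 to 0.884). Both were named after their values were seen.

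Of the 13 hypoxia response genes detected at 48 hpf, 10 were higher and 3 lower beyond counting error, and 4 passed 2-fold upward and 1 downward. Over all genes these shares were 28.0% and 34.4% beyond counting error, and 3.76% and 5.12% past 2-fold. Their median log2 ratio was 0.56, against 0.28 for the 10 glycolysis genes and 0.32 for the 9 of them with at least 1 FPKM. Also past 2-fold were ankrd37, with 15.5 FPKM in KDM5A-KO against 5.27 FPKM in WT, and igfbp1a, which was named after its values were seen, with 71.6 FPKM in KDM5A-KO against 32.2 FPKM in WT. At 24 hpf the median of the hypoxia response genes was 0.22, beside 0.22 for all genes. After rescaling it was -0.02, beside -0.01 for all genes. Of the 10 detected at that age, 2 passed 2-fold upward, beside 4.22% of all genes, and 1 did after rescaling. The transcript of hif1ab, a subunit of the factor itself, had 36.6 and 49.0 FPKM in KDM5A-KO at 24 and 48 hpf, against 31.7 and 44.7 FPKM in WT.

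**Figure D5:**
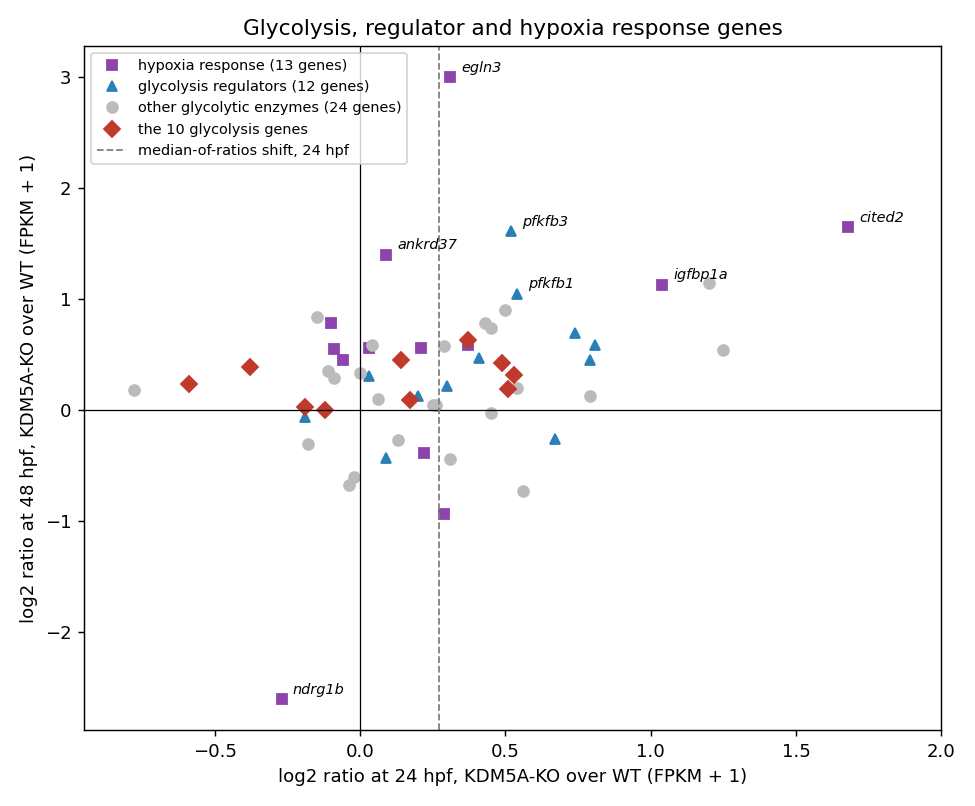
Log2 ratio of KDM5A-KO to WT, on FPKM + 1, at 24 hpf (horizontal) and 48 hpf (vertical) for the 10 glycolysis genes (red diamonds), 24 other glycolytic enzymes (grey circles), 12 glycolysis regulators (blue triangles) and 13 hypoxia response genes (purple squares), 1 point per gene, with regulator and hypoxia genes past 2-fold at 48 hpf named. The glycolysis genes stay within 2-fold on both axes, while egln3 lies far above and ndrg1b far below them at 48 hpf.

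Markers of tissues that use these enzymes also differed between the libraries. At 48 hpf, 14 of 15 muscle markers were higher in KDM5A-KO beyond counting error, with a median log2 ratio of 0.28, and their summed level was 45810 FPKM in KDM5A-KO against 36050 FPKM in WT. Of 13 neuron markers, 11 were lower beyond counting error and 7 at least 2-fold lower, with a summed level of 746.4 FPKM in KDM5A-KO against 1506 FPKM in WT. All 10 lens markers were lower, with a summed level of 1096 FPKM in KDM5A-KO against 2543 FPKM in WT. Of all genes at 48 hpf, 28.0% were higher and 34.4% lower beyond counting error, and 5.12% were at least 2-fold lower. At 24 hpf the muscle markers went the other way, with 12 of 16 lower beyond counting error and a summed level of 11660 FPKM in KDM5A-KO against 12870 FPKM in WT. Of all genes, 10.1% were lower beyond counting error there, and 23.6% after rescaling. After rescaling 15 of 16 muscle markers were lower and 0 higher beyond counting error. For the 13 neuron markers these counts were 7 lower and 1 higher. The summed levels at that age were 340.2 FPKM in KDM5A-KO against 367.6 FPKM in WT for neuron markers, and 40.2 FPKM in KDM5A-KO against 83.5 FPKM in WT for lens markers. Every one of these summed levels of muscle, neuron and lens markers was higher at 48 than at 24 hpf in both genotypes, as were those of the glycolysis genes. Of 7 early somite markers detected at 24 hpf, which mark stages of development, 5 were higher and 2 lower in KDM5A-KO. Of all genes at that age, 71.6% were higher, so this share was near that of all genes. Beyond counting error 3 of the 7 were higher and 2 lower, beside 42.1% and 10.1% of all genes. After rescaling 2 were higher and 2 lower beyond it, beside 19.9% and 23.6% of all genes. The median log2 ratio of the 7 was 0.46, beside 0.22 for all genes, and 0.28 beside -0.01 after rescaling. The summed level of the early somite markers went the other way, with 62.5 FPKM in KDM5A-KO against 77.9 FPKM in WT. The 2 lower genes, dlc and dld, were the most abundant of the list at 24 hpf. They had 16.3 and 21.9 FPKM in KDM5A-KO against 19.3 and 44.1 FPKM in WT. At 48 hpf these were the only 2 of the list with at least 1 FPKM, and whether they mark early somites alone was not tested. The part of these tissues and stages in the differences of the glycolysis genes was not tested. In libraries of whole embryos, fewer cells of a type and less RNA per cell cannot be told apart.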

How the data were processed

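RNA of whole zebrafish embryos was sequenced in 4 libraries. The submitters' processing notes name FastQC 0.11.5, HISAT2 2.1.0, StringTie 1.3.3b and DESeq 1.28.0. The table deposited by the authors holds FPKM of 26812 genes, with 1 column a library. The notes name the mouse build mm10 beside zebrafish gene IDs. The zebrafish build is not given in the sources used here, so no coordinates are printed, and chromosomes are those of the table. The labels name a SMARTER mRNA kit, whereas the paper names an NEBNext Ultra kit, and the sample titles carry the letters mo without explaining them.

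Log2 ratios were taken on FPKM + 1, and genes were compared where either library had at least 1 FPKM. Ratios of FPKM stand without a pseudocount. Read totals were recovered from the steps between FPKM values. A gene's reads followed from the smallest length that makes its values whole within 0.002. These sum to 98.2% to 98.5% of the totals. The length found for gapdhs, 726 bases, is short and a multiple could hold, in which case its intervals would be narrower. Intervals are 95% exact (Clopper-Pearson) intervals of the reads. The floor for a count of 0 was 3 reads. No p-value is given because each group had 1 library. The scripts were tested on simulated data. Calculations ran in Python 3.11.15 (pandas 2.3.3, numpy 2.4.6, scipy 1.17.1), and plots were drawn with matplotlib 3.10.9.

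The members and gene lists were chosen with earlier results of these data known. All members and KDM5A are named. Of each list, up to 4 genes could be named, those with the largest difference between the genotypes among those with at least 5 FPKM in a library, and so could copies of the members' enzymes. Not all of these are named, and marker lists are given by counts, medians and sums, with only dlc and dld named. The gene list of the hypoxia response was used without 1 gene, which is not reported here. Any other gene named was picked with its values in view. The results were recomputed with a pseudocount of 0.1, median-of-ratios rescaling over the 14596 genes with at least 1 FPKM in all 4 libraries, totals without rRNA genes, a minimum mean of 50 FPKM, a 1.5-fold threshold and the list with the other enzymes added. Annotation columns were used for names, biotypes and positions only. Promoter and protein sequences were not used here.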

Additional observations from a re-analysis of the deposited data

Results flagged for a closer look

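The glycolysis genes and the genes that the naming rule took from the pathway lists, up to 4 a list, were examined for opposite directions at the 2 ages. Other genes of the lists and the tissue markers were left out of this count. As the naming rule takes the genes with the largest differences between the genotypes, the count gives no share of the lists. For 10 of those examined the difference between KDM5A-KO and WT ran in opposite directions at 24 and 48 hpf, on the scale of log2(FPKM + 1). With 1 library a group, these differences were not tested across replicates. Among the 10 glycolysis genes, subtracting the log2 ratio at 24 hpf from the one at 48 hpf gave 0.84 for gpib, 0.77 for ldha and 0.22 for pfkpa, each lower in KDM5A-KO at 24 hpf and higher at 48 hpf. The ratios of pfkpa lay within counting error at both ages as deposited, and at 24 hpf it was lower beyond counting error after rescaling.

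Of the neighbouring pathways, the difference was 0.98 for pfkmb, 1.19 for slc16a3, 0.62 for slc2a1b and 1.15 for pygma, which were also lower in KDM5A-KO first and higher later. It was -1.31 for slc2a1a, -1.61 for gyg1b and -0.77 for fbp2, which were higher in KDM5A-KO at 24 hpf and lower at 48 hpf. As deposited, the ratios of pfkmb, slc2a1b, gyg1b and fbp2 at 24 hpf lay within counting error, so their direction at that age is uncertain. The share of all genes that changed direction was not computed, so whether the flagged genes are unusual in this was not tested. Over all genes, 71.6% were higher in KDM5A-KO at 24 hpf and 46.2% at 48 hpf. After rescaling these shares were 49.0% and 45.5%. For fbp2 the log2 ratio at 24 hpf was 0.05 as deposited and -0.05 after rescaling, so its opposite direction was lost there. The signs of the other 9 genes were kept after rescaling.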

How the results depend on the processing

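At 24 hpf, the median log2 ratio of KDM5A-KO to WT over the 10 genes was 0.15 as deposited and turned to -0.005 with median-of-ratios rescaling. Over the 9 genes other than aldoca it was 0.14 and -0.13. The count of genes past 2-fold was 0 at both ages. At 24 hpf it was 1 with a pseudocount of 0.1, where aldoca passed on 4 reads in KDM5A-KO against 0 in WT. It was 1 with a 1.5-fold threshold. Once the other glycolytic enzymes were added it was 2, both upward, where 4.22% of all genes passed 2-fold upward. These 2 were hk2 and aldocb, and neither was past 2-fold after rescaling. At 48 hpf the count was 1 with a 1.5-fold threshold and 1 with the other enzymes. The shares of all genes with a pseudocount of 0.1 or a 1.5-fold threshold were not computed. For 48 against 24 hpf, 8 genes passed 2-fold in each genotype. In KDM5A-KO this count was 4 where the mean FPKM was at least 50 and 19 with the other enzymes, where the median was 1.23 instead of 1.80. In WT it was 4 and 21, and over the same 10 genes it was 7 with rescaling, 6 without rRNA genes and 9 with a pseudocount of 0.1. The gene added by that pseudocount was aldoca, on 8 reads at 48 hpf against 0 reads at 24 hpf. The WT median of 1.3 became 1.16 with the other enzymes, 1.2 with rescaling and 1.12 without rRNA genes. The counts with other enzymes or a minimum level rest on more or fewer genes.

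Rescaling moved 8 of 24 single-gene log2 ratios outside their counting interval, all of them glycolysis genes at 24 hpf, and totals without rRNA genes moved 4, all at 24 hpf. The pgk1 log2 ratio at 24 hpf was -0.04 without rRNA genes. Among alternatives chosen after seeing the data, the log2 ratio of egln3 at 48 hpf was 4.1 with a pseudocount of 0.1, against 3.0 with 1. No paired analysis was possible because a single library stood for every group. The WT library at 24 hpf had the fewest reads, and its share of rRNA reads limits comparisons at that age.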
